A study of Homo sapiens with 35 samples.

Results

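The 39 genes described here encode subunits and partners of the Polycomb, trithorax and BAF chromatin complexes. They were taken by name, as known members of these complexes and not by a threshold on measured values, out of the 58581 genes of the deposited count table. The choice was made with earlier results of these data known. By complex, 9 belong to Polycomb repressive complex PRC2, 13 to PRC1 and its KDM2B partner, 7 to the trithorax-type COMPASS complexes, 7 to BAF, and 3 encode histone demethylases. Poly(A) RNA of H9, an established human embryonic stem cell line, was sequenced in 35 libraries. Cells kept in E8 medium on Matrigel were seeded as single cells and sampled at seeding (t0) and every 6 h up to 48 h in 1 of 3 media. E8 alone served as the pluripotency control and E6 alone as the control for spontaneous differentiation. BA was E6 with BMP4 and Activin A, labelled 40 ng/mL, and is the mesendoderm condition. There were 3 libraries each at t0, in BA at 24 h and 48 h, in E6 at 48 h and in E8 at 48 h, and 1 library in each of the other 20 groups. All cells are of 1 line, and nothing in the labels tells separate cultures from repeat libraries, so p-values measure only the spread between these libraries. In the time-course fits, with 1 library per medium and time point, they measure scatter across hours of 1 series and not between replicates. Those fits treat the hours as independent.

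As background, PRC2 methylates histone H3 at a lysine linked with gene silencing, through EZH2 or its paralog EZH1, together with EED, SUZ12 and the histone binders RBBP4 and RBBP7. PRC1 ubiquitinates histone H2A through RING1 or RNF2, and its makeup depends on which PCGF, CBX and PHC proteins join. COMPASS complexes methylate H3 at a lysine linked with active genes, the demethylases KDM6A and KDM6B remove the PRC2 mark, and BAF moves nucleosomes. In pluripotent cells Polycomb complexes sit at many silent developmental genes.

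Libraries held 11793453 to 37191969 counts. Levels are CPM, counts scaled to library size by TMM over all 35 libraries. Replicate 1 and the single libraries (25) stood apart from replicates 2 and 3 (10 libraries), and 9 of the 39 genes had no overlap between the sets, a share of 23.1% beside 19.2% of genes with a mean of 1 CPM or more. The E6 library at 18 h also stood apart: its genes of 10724 bp or more lay at -0.71 from the series median on the log2 scale and those of 1691 bp or less at 0.58. The E8 library at 24 h had -0.31 and 0.38. CDH1, an epithelial cadherin, was at 18.2 to 24.2 CPM in BA at 42 h and E8 at 18 and 36 h, and at 41.3 CPM or more in every other library. The 5 pluripotency markers summed to 2926 to 4157 CPM at t0. Of the blood and endothelium markers, PTPRC reached at most 0.202 CPM, PECAM1 1.06 CPM and CDH5 15.1 CPM. Of the fibroblast markers, DCN reached at most 0.379 CPM and COL3A1 16.6 CPM, while COL1A1 was at 26.9 to 245 CPM. Endoderm markers summed to 1.21 to 200 CPM in BA, with SOX17 at up to 174 CPM, and to 11.3 CPM or less elsewhere. The 3 neural markers summed to at most 46 CPM, in E6, nearly all of it FEZF1, and to at most 7.63 CPM in E8 and 2.61 CPM in BA. Primitive streak markers summed to 21 to 2730 CPM in BA and to 11.6 CPM or less in the other media, and amnion markers to 59 to 301 CPM in BA and at most 2.86 CPM elsewhere. In bulk RNA, fewer cells of a type and less RNA per cell cannot be told apart.

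Over 6 to 48 h, 5 of the 39 genes were lower in BA than in E6 and 3 were higher. The 5 were PHC1, JARID2, RBBP7, CBX2 and PHF19, and the 3 were BMI1, KDM6B and PCGF6. Against E8, 6 were lower, the same 5 and KDM2B, and 3 were higher, namely SMARCA2, BMI1 and PCGF6. These calls come from edgeR's quasi-likelihood test on 24 libraries of the first set, with 1 library per medium and time point and time as a block, at a Benjamini-Hochberg adjusted p below 0.05 over 16971 genes. Calls took 30.9% of all genes for BA against E6 (16.5% higher and 14.3% lower) and 31% for BA against E8 (16.3% and 14.6%). The median log2 difference of the 39 was 0.009 against E6 and 0.000 against E8, beside -0.004 and -0.003 over all genes.

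**Figure D1:**
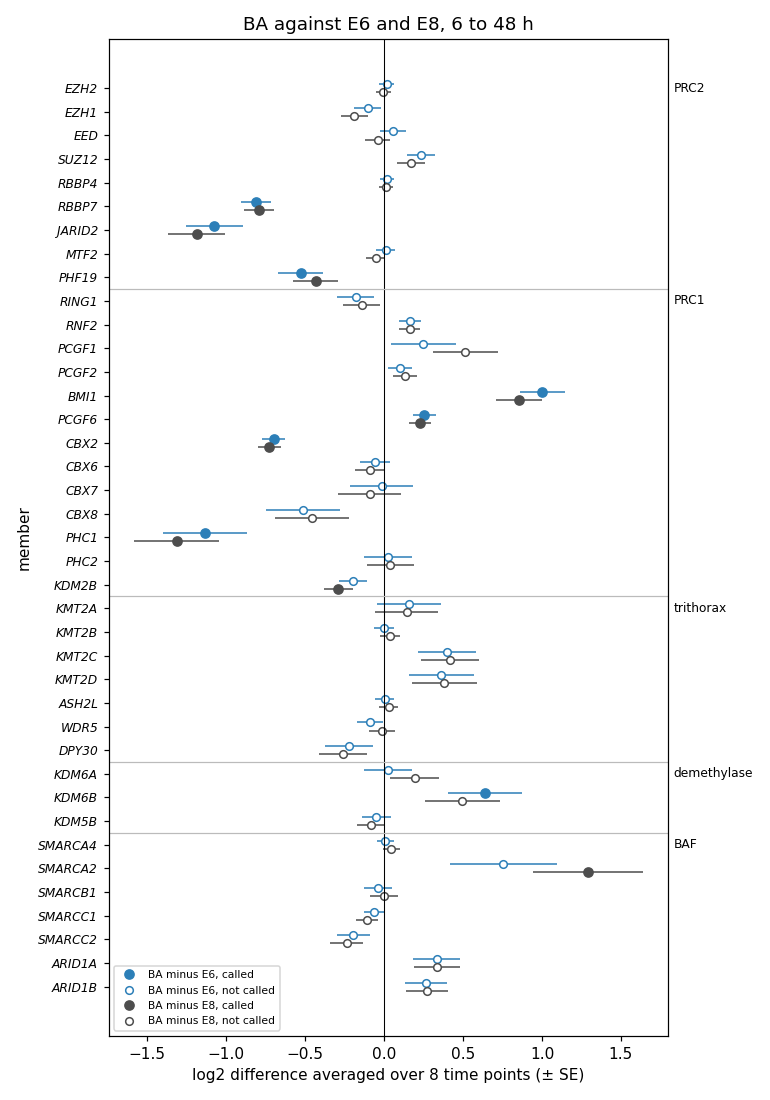
Log2 difference (± SE) of BA from E6 (blue) and from E8 (grey), averaged over the 8 time points, for each of the 39 genes grouped by complex; filled points were called at an adjusted p below 0.05. PHC1 and JARID2 lie furthest left in both comparisons, BMI1 lies to the right in both, and SMARCA2 is filled only against E8.

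Over the time course edgeR called 0 of the 39 and 0% of all genes between E6 and E8. At an unadjusted p below 0.05 the count was 0 of the 39 and 216 genes in all, and DESeq2 called 0 genes. The fit shares 1 time block over the 3 media, so changes over time in BA alone widen the spread used for E6 against E8. The 0 therefore does not show that E6 and E8 were alike. In the replicated groups at 48 h, edgeR called FEZF1 higher in E6 than in E8 (log2 difference 6.69 ± 0.499, adjusted p = 0.000232). Leaving out the E6 library at 18 h changed the counts to 9 of 39 for BA against E6 (32.9% of all genes) and 18 of 39 for BA against E8 (37.6%). The 9 added against E8 were ARID1A, ARID1B, KMT2C, KMT2D, PCGF1, RNF2, SMARCC1, SMARCC2 and SUZ12. Leaving out that library, E8 at 24 h and the 3 libraries low in CDH1 gave 11 of 39 (33.1%) and 13 of 39 (26.5%). Adding replicates 2 and 3 at 24 and 48 h, with a term for the library set, gave 14 (36.2%) and 18 (36.1%). The share of the 39 called was thus below that of all genes in some fits and above it in others, and the difference was not tested. BMI1, CBX2, JARID2, PHC1 and RBBP7 were called against both controls under each of these alternatives, and the part of the library quality in the remaining calls was not tested.

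Promoters of 4 of these genes, chosen after their values were seen, are shown because JARID2, RBBP7 and PHC1 were lowest in BA relative to both controls and KDM6B rose most steeply. Each runs from 250 bases before to 50 bases after the RefSeq gene start (GRCh38.p14), 5′ to 3′ on the gene's strand, and capitals mark the GC box GGGCGG or its reverse complement.
JARID2 (chr6:15245819-15246118, + strand): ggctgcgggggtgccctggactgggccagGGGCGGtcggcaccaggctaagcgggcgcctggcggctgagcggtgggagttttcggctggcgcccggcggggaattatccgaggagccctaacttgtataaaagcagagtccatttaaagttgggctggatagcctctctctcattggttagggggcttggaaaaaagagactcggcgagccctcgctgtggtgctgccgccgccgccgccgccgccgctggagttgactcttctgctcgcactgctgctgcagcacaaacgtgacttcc
RBBP7 (chrX:16870313-16870612, - strand): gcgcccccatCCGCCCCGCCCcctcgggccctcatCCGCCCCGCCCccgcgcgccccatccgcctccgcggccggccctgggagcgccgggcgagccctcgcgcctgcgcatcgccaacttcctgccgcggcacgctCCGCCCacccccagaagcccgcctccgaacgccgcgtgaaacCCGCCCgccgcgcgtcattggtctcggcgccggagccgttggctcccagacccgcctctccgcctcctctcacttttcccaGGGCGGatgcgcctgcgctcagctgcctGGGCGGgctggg
PHC1 (chr12:8913593-8913892, + strand): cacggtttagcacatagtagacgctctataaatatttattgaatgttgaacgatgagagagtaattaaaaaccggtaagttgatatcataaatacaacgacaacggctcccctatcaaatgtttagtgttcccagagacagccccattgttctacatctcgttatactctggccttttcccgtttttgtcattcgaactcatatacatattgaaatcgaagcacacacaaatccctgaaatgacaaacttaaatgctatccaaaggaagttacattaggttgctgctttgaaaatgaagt
KDM6B (chr17:7839667-7839966, + strand): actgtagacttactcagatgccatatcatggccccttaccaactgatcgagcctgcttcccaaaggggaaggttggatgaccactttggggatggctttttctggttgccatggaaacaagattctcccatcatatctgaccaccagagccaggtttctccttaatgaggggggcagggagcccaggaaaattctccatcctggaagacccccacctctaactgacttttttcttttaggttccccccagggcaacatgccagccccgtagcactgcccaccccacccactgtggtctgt
The RBBP7 window was 78.3% G or C with 44 CpG pairs and 8 GC boxes, and the JARID2 window 64.0% with 24 CpG pairs and 1 GC box. PHC1 (37.0%, 10 CpG pairs) and KDM6B (53.0%, 2 CpG pairs) held no GC box. The RefSeq starts lay 52 bases (RBBP7), 227 (JARID2), 53 (PHC1) and 13 (KDM6B) from the GENCODE release 29 gene start, and which start these cells use was not measured. Of the 39 genes, 33 had a promoter in the RefSeq table, with a median of 67.0% G or C and 30 CpG pairs beside 58.7% and 14 over 35116 promoters. Searched on both strands, the GC box was in 25 of the 33 and in 45% of all promoters. The octamer ATGCAAAT, the T-box site TCACACCT and the SMAD palindrome GTCTAGAC were in 0 of the 33, and in 1.77%, 0.98% and 0.202% of all. The E2F letters GGCGGGAA, which overlap the GC box letters, were in 1 (3.16% of all), and the E-box CAGCTG in 6 (17.9%). These matches describe the letters in the windows and no binding.

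Among PRC2 genes, the accessory factor JARID2, which helps PRC2 reach its targets, fell in BA from the first time point on. JARID2 (chromosome 6, 15246296 to 15522040 on GRCh38) measured 376 CPM in BA at 6 h, 228 at 24 h and 144 at 48 h. In E6 it had a lowest, median and highest of 305, 513 and 560 CPM over the 8 time points, and in E8 of 438, 512 and 566 CPM. All 8 BA libraries were below every E8 library, and the E6 library at 18 h was the 1 control library inside the BA range. The log2 difference was -1.07 ± 0.181 (SE) from E6 (adjusted p = 0.000201) and -1.19 ± 0.181 from E8 (adjusted p = 7.6e-05). In replicates 2 and 3 at 48 h JARID2 stood at 310 and 305 CPM in BA, 402 and 376 in E6, and 433 and 398 in E8, the same order with a smaller gap.

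RBBP7, a histone-binding subunit that PRC2 shares with other complexes, was lower in BA at every time point. RBBP7 (chromosome X, 16839283 to 16870414) had a lowest, median and highest of 160, 200 and 274 CPM in BA, 341, 357 and 465 CPM in E6 and 333, 361 and 405 CPM in E8, so that the BA libraries overlapped with neither control. The log2 difference was -0.81 ± 0.0945 from E6 (adjusted p = 4.44e-06) and -0.79 ± 0.0945 from E8 (adjusted p = 5.88e-06). Its paralog RBBP4 did not pass the test in either comparison, with medians of 275, 288 and 286 CPM in BA, E6 and E8. The RBBP7 exons overlap those of TXLNG on the opposite strand, and the strand of counting is not given in the sources used here. PHF19, a Tudor-domain PRC2 partner, started level with the controls at 31.2 CPM in BA at 6 h and ended at 12.0 CPM at 48 h, against 32.5 CPM in E6 and 29.9 in E8. Its difference averaged over time was -0.53 ± 0.141 from E6 (adjusted p = 0.00823) and -0.43 ± 0.142 from E8 (adjusted p = 0.0265). The call was lost under 1 of 15 alternatives against E6 (adjusted p = 0.0593 without the 5 libraries that stood apart) and under 4 of 15 against E8 (adjusted p up to 0.222). In replicates 2 and 3 PHF19 was not below the controls at 48 h: it measured 32.3 and 30.1 CPM in BA, 29.7 and 29.9 in E6, and 30.6 and 28.0 in E8. At 24 h in BA it was at 23.1, 24.7 and 27.1 CPM in replicates 1, 2 and 3, against 33.9, 37.0 and 40.3 CPM at t0. These groups did not overlap, but edgeR did not call the difference (adjusted p = 0.602). E6 and E8 had no replicates 2 and 3 at 24 h.

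The catalytic core did not follow these 3 genes. EZH2, the main methyltransferase, had medians of 133, 134 and 136 CPM in BA, E6 and E8, with log2 differences of 0.02 ± 0.0473 from E6 (adjusted p = 0.83) and -0.01 ± 0.0473 from E8 (0.939). EZH1 had medians of 31.7, 33.4 and 35.2 CPM (adjusted p = 0.398 and 0.112). EED, SUZ12 and MTF2, a second Tudor-domain partner, were not called in either comparison. SUZ12 was called against E8 without the E6 library at 18 h. The BA medians of EED, SUZ12 and MTF2 were 34.0, 102 and 129 CPM, against 31.3, 93.5 and 134 CPM in E6. Per kilobase of exon, EZH2 was 2 to 8.51 times as high as EZH1 over the 35 libraries. That ratio was 3.81 to 5.53 at t0, 4.90 to 5.46 at 48 h in replicate 1 of the 3 media, and 2 to 3.19 in replicates 2 and 3.

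**Figure D2:**
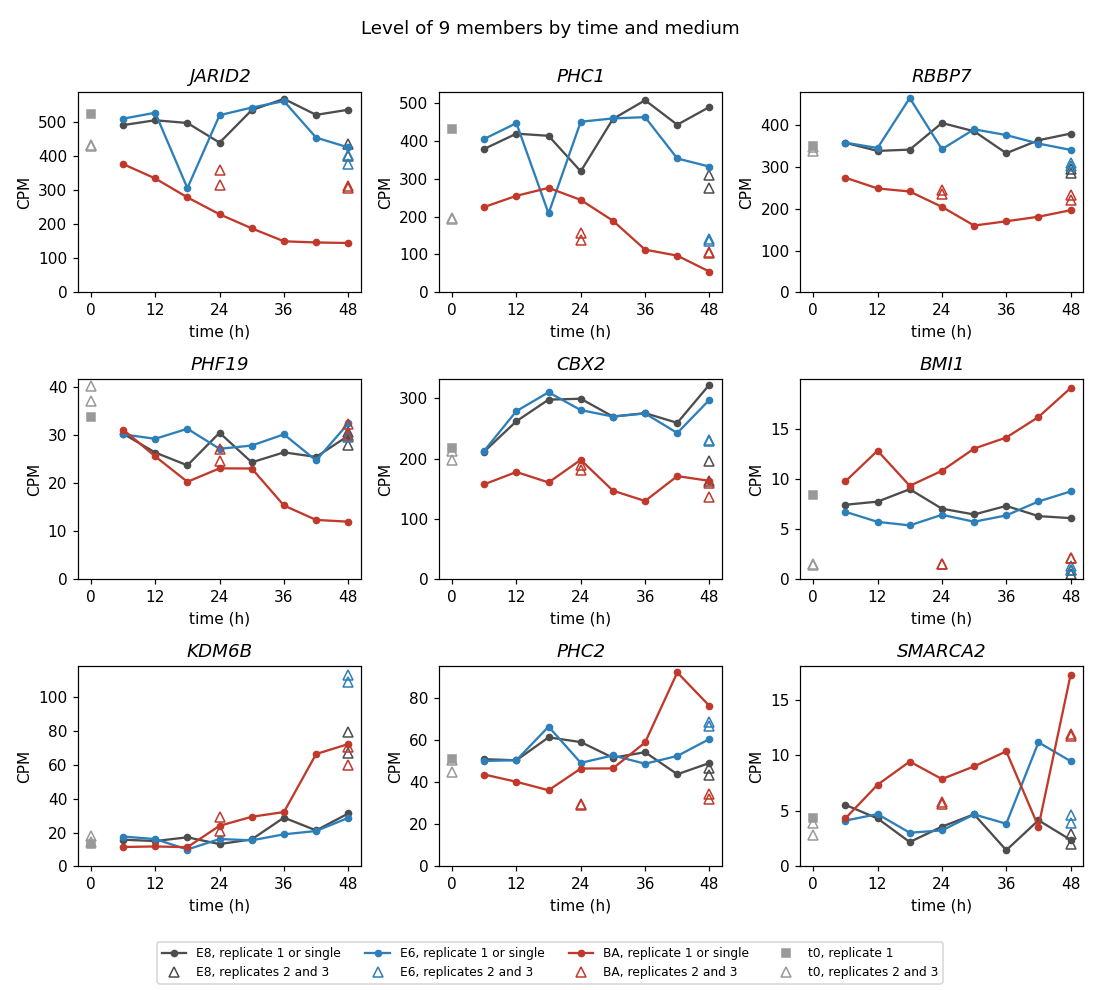
CPM (linear axis from 0) of 9 genes against hours after seeding; lines join the 8 libraries of replicate 1 or single libraries in E8 (grey), E6 (blue) and BA (red), and triangles are replicates 2 and 3. JARID2, RBBP7 and CBX2 run below both controls in BA, and so does PHC1 except against E6 at 18 h. BMI1 runs above the controls in BA, at a level that replicates 2 and 3 do not reach in any medium. KDM6B is highest in E6 in replicates 2 and 3.

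In PRC1, the Polyhomeotic gene PHC1, whose protein joins PRC1 complexes into larger assemblies, was lower in BA than in E8 at every time point and had a falling slope in BA. PHC1 (chromosome 12, 8913896 to 8941467) was at 431 CPM at t0 in replicate 1 and at 226, 255, 276 and 244 CPM in BA at 6, 12, 18 and 24 h, then at 189, 113, 96.9 and 54.7 CPM at 30, 36, 42 and 48 h. The level was thus below t0 at the first time point, changed little to 24 h and was lower again from 30 h. In E8 it ranged from 320 to 508 CPM with a median of 431, and in E6 from 209 to 463 CPM with a median of 426. Every BA library lay below every E8 library, while the E6 library at 18 h lay within the BA range. The difference was -1.14 ± 0.267 from E6 (adjusted p = 0.00338) and -1.31 ± 0.269 from E8 (adjusted p = 0.00112). Replicates 2 and 3 had less PHC1 from the start, 194 and 195 CPM at t0 against 431 CPM in replicate 1. PHC1 exons overlap those of M6PR on the opposite strand. PHC2, the paralog, was not called between media over the whole course, but rose in BA from 43.7 CPM at 6 h to 92.1 CPM at 42 h and 76.2 CPM at 48 h. The ratio of PHC1 to PHC2 per kilobase went from 4.22 to 0.586 in BA between 6 and 48 h, and stood at 8.15 in E8 and 4.49 in E6 at 48 h in the same set. In replicates 2 and 3 at 48 h PHC2 was at 34.5 and 32.1 CPM in BA, below E6 (66.5 and 68.6 CPM) and E8 (46.5 and 43.5 CPM).

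CBX proteins bind the PRC2 mark and bring PRC1 to it. CBX2 (chromosome 17, 79778132 to 79787983) was lower in BA at all 8 time points, with a lowest, median and highest of 130, 162 and 198 CPM against 213, 276 and 310 CPM in E6 and 212, 272 and 322 CPM in E8. BA did not overlap with either control, and the difference was -0.70 ± 0.0725 from E6 (adjusted p = 1.27e-06) and -0.73 ± 0.0726 from E8 (adjusted p = 8.12e-07). Counting such gaps, 3 of the 39 genes had no overlap between BA and E6 (RBBP7, BMI1 and CBX2) and 5 had none between BA and E8 (with JARID2 and PHC1). The shares over genes with a mean of 1 CPM or more were 7.11% and 8.27%. CBX6 (medians of 56.7, 62.9 and 62.5 CPM in BA, E6 and E8), CBX7 (2.72, 2.49 and 2.95 CPM) and CBX8 (1.27, 1.77 and 1.68 CPM) were not called between media over time.

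CBX7 and CBX8 differed between the library sets at 48 h. CBX7 was at 2.31, 3.45 and 3.59 CPM in replicates 1, 2 and 3 of t0 and at 4.95, 44.5 and 43.3 CPM in E8 at 48 h. In BA at 48 h it was at 2.23, 17.2 and 16.0 CPM, and in E6 at 4.35, 18.7 and 17.6 CPM. Replicates 2 and 3 were thus above t0 at 48 h in all 3 media, furthest in E8, and replicate 1 was at 4.95 CPM or less. The log2 difference of E8 at 48 h from t0 was 3.37 ± 0.895 (adjusted p = 0.116), and 2.95 ± 0.474 (adjusted p = 0.00253) with replicate number as a block. CBX8 in E6 at 48 h was at 2.70, 5.55 and 6.46 CPM, in BA at 2.62, 1.74 and 1.68 CPM, a difference of -1.28 ± 0.368 (adjusted p = 0.0865, with the block 0.0205). Per kilobase, CBX2 was 4.92 to 198 times as high as CBX7 over the 35 libraries, and 26.2 to 216 times as high as CBX8.

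**Figure D3:**
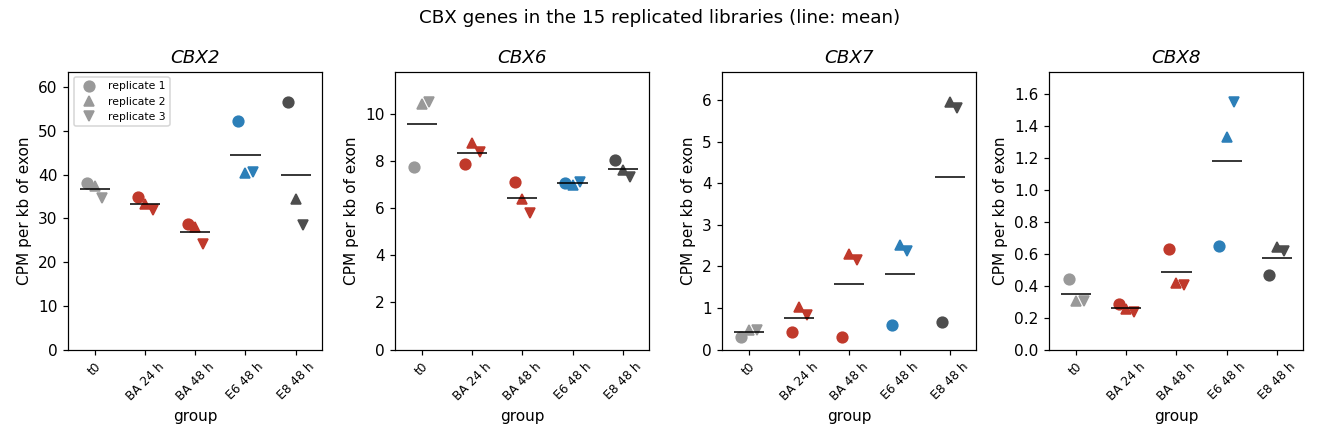
CPM per kilobase of exon (linear axes from 0, scaled separately) of CBX2, CBX6, CBX7 and CBX8 in the 15 libraries of the 5 replicated groups; circles are replicate 1, triangles replicates 2 and 3, and lines the mean. CBX7 in E8 at 48 h separates into replicate 1 near the t0 level and replicates 2 and 3 far above it, and CBX8 is highest in replicates 2 and 3 of E6.

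Of the PCGF subunits, which define PRC1 variants, BMI1 (PCGF4) was higher in BA throughout the first set. BMI1 (chromosome 10, 22321211 to 22331484) had a lowest, median and highest of 9.31, 12.9 and 19.0 CPM in BA, 5.37, 6.39 and 8.75 CPM in E6 and 6.09, 7.17 and 8.97 CPM in E8, with no overlap. The difference was 1.003 ± 0.142 from E6 (adjusted p = 3.7e-05) and 0.85 ± 0.143 from E8 (adjusted p = 0.000184). In replicates 2 and 3 the level was far lower in every group, 0.561 to 2.16 CPM, and at 48 h BA (2.09 and 2.16 CPM) was again above E6 (0.905 and 1.30) and E8 (0.968 and 0.561). With the replicate block the 48 h differences were 1.03 ± 0.215 from E6 (adjusted p = 0.00624) and 1.55 ± 0.221 from E8 (adjusted p = 0.000905). BMI1 shares its exons with the readthrough gene COMMD3-BMI1, so reads could be split or dropped between the 2 and its level is uncertain. PCGF6, of a variant PRC1, was at 24.0, 20.9 and 20.2 CPM by median in BA, E6 and E8 (differences 0.26 ± 0.0716 and 0.23 ± 0.0716, adjusted p = 0.0113 and 0.0219), calls that were lost under 3 and 6 of 15 alternatives, with adjusted p up to 0.108 and 0.187. PCGF1 (medians of 4.66, 3.37 and 3.12 CPM) and PCGF2 (35.0, 33.7 and 31.3 CPM) were not called. Without the E6 library at 18 h PCGF1 was called against E8. KDM2B, which brings a variant PRC1 to CpG-rich DNA, was at medians of 162, 200 and 198 CPM, and its difference was -0.29 ± 0.0906 from E8 (adjusted p = 0.0208) and -0.20 ± 0.0905 from E6 (0.109). The E8 call was lost without the 42 h or the 48 h time point (adjusted p up to 0.0635). The ubiquitin ligases RING1 (medians of 19.4, 20.2 and 22.0 CPM) and RNF2 (81.9, 76.9 and 73.1 CPM) were not called between media over time. RNF2 was called against E8 without the E6 library at 18 h.

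None of the 7 COMPASS genes was called between media over time in the main fit. Without the E6 library at 18 h KMT2C and KMT2D were called against E8, where 37.6% of all genes were. The methyltransferase genes KMT2A, KMT2B, KMT2C and KMT2D had BA medians of 242, 133, 102 and 406 CPM against E8 medians of 243, 136, 91.1 and 355 CPM. The shared subunits ASH2L, WDR5 and DPY30 had BA medians of 64.8, 107 and 18.0 CPM against 61.9, 106 and 21.4 CPM. The E6 library at 18 h set the lowest E6 value of KMT2A (63.1 CPM), KMT2C (24.4) and KMT2D (99.4) and the highest of DPY30 (45.6 CPM), which is the library low in long genes and high in short ones.

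KDM6B, the inducible demethylase of the PRC2 mark, rose with time. KDM6B (chromosome 17, 7839904 to 7854796) was at 11.5, 11.8 and 11.4 CPM in BA at 6, 12 and 18 h, at 24.1, 29.4 and 32.2 CPM at 24, 30 and 36 h, and at 66.5 and 72.4 CPM at 42 and 48 h. In E6 it ended at 28.8 CPM and in E8 at 31.4 CPM. BA was above E6 at 6 of 8 time points and above E8 at 5. Averaged over time the difference was 0.64 ± 0.236 from E6 (adjusted p = 0.0483) and 0.50 ± 0.236 from E8 (0.126), and the E6 call was lost under 8 of 15 alternatives, with adjusted p up to 0.413. Replicates 2 and 3 had the other order at 48 h: 114 and 109 CPM in E6, 79.5 and 66.9 in E8, and 70.9 and 60.1 in BA. In that set KDM6B was at 14.7 and 17.8 CPM at t0, so it was higher at 48 h in all 3 media. Whether the sets differ in this response was not tested. KDM6A, the paralog, was not called, with medians of 133, 137 and 117 CPM in BA, E6 and E8 over time. In replicates 2 and 3 KDM6A was at 108 and 100 CPM at t0. At 48 h those replicates had 184 and 234 CPM in BA, 207 and 193 in E6, and 234 and 260 in E8. Replicate 1 had 158 CPM at t0 and 169, 168 and 129 CPM at 48 h in BA, E6 and E8. KDM5B, a demethylase of the COMPASS mark, was also not called, with medians of 387, 398 and 401 CPM.

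In BAF, the single gene called in the main fits was SMARCA2, the less abundant of the alternative ATPases. SMARCA2 (chromosome 9, 1980290 to 2193624) was at 17.2, 11.7 and 11.9 CPM in replicates 1, 2 and 3 of BA at 48 h and at 2.39, 2.93 and 2 CPM in E8 at 48 h, groups that did not overlap. The log2 difference was 2.51 ± 0.37 (adjusted p = 0.00461). In E6 it was at 9.46, 4.64 and 3.88 CPM (difference of BA 1.22 ± 0.354, adjusted p = 0.0897, with the block 0.00301). Over the time course BA had a lowest, median and highest of 3.58, 8.43 and 17.2 CPM and E8 of 1.46, 3.87 and 5.54 CPM, and the difference was 1.29 ± 0.346 (adjusted p = 0.00813). The BA library at 42 h, 1 of the libraries low in CDH1, gave the lowest BA value. SMARCA4, the main ATPase in these cells, had medians of 732, 747 and 704 CPM in BA, E6 and E8, with no call. Per kilobase it was 37.5 to 547 times as high as SMARCA2, 173 to 240 times at t0 and 37.5 to 45.7 times in BA at 48 h. An antisense gene overlaps SMARCA2 exons.

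The remaining BAF genes were not called in the main fits. Without the E6 library at 18 h, ARID1A, ARID1B, SMARCC1 and SMARCC2 were called against E8, where 37.6% of all genes were. Calls with the replicate block are given below. The scaffold gene SMARCC1 had medians of 666, 740 and 747 CPM in BA, E6 and E8 and its paralog SMARCC2 of 143, 171 and 166 CPM. SMARCC2 differed by -0.19 ± 0.105 from E6 (adjusted p = 0.18) and -0.24 ± 0.105 from E8 (0.1). The DNA-binding subunits ARID1A (639, 557 and 513 CPM) and ARID1B (260, 225 and 211 CPM) had adjusted p = 0.102 and 0.137 against E6 and 0.0994 and 0.128 against E8. SMARCB1 stood at 127, 128 and 124 CPM. Per kilobase, SMARCC1 was 3.61 to 6.54 times as high as SMARCC2, and ARID1A 4.94 to 8.72 times as high as ARID1B, over the 35 libraries. These lengths are of the union of annotated exons, and with the longest transcript the ratios were lower, 2.16 to 3.92 and 2.22 to 3.92.

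Steady trends were fitted in each medium as a log2 slope per 24 h over the same 24 libraries. In BA 11 of the 39 genes had a slope, 7 rising and 4 falling, where 20.6% of all genes did (10.2% rising and 10.4% falling). The falling genes were PHC1 (-1.23 ± 0.228), JARID2 (-0.88 ± 0.121), PHF19 (-0.76 ± 0.11) and RBBP7 (-0.35 ± 0.0889). The rising ones were KDM6B (1.70 ± 0.192), CBX8 (0.78 ± 0.271), PHC2 (0.66 ± 0.117), BMI1 (0.50 ± 0.122), RNF2 (0.30 ± 0.0924), CBX6 (0.29 ± 0.0927) and RBBP4 (0.19 ± 0.06). Adjusted p-values ran from 8.71e-07 for KDM6B to 0.0443 for CBX8. The slope of CBX8 rested on 0.544 to 2.62 CPM and was lost in 7 of 13 alternatives, those of RBBP4 and CBX6 in 5 and that of RNF2 in 4. PHC2, RBBP4 and RNF2 are outside the rule for named genes and are given because of their values. The count fell to 7 without the low-count filter or without the 12 h time point.

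In E6 and E8 edgeR called 0 slopes among the 39. At an unadjusted p below 0.05 there were 5 in E6 and 3 in E8, and DESeq2 also called 0 of the 39. Over all genes the share called by edgeR at the adjusted threshold was 0.23% in E6 and 0% in E8. The share at the unadjusted threshold is not given here, so the 5 and 3 are not a result about the 39 genes. The slope itself differed between BA and E6 for 5 genes (9.17% of all genes): JARID2, PHF19 and PHC1 were lower (5.5% of all) and PHC2 and KDM6B higher (3.67%). Between BA and E8 it differed for 6 (9.39%), the same 3 lower (5.64%) and PHC2, KDM6B and BMI1 higher (3.75%). Without the 48 h time point the E6 count was 3 and the call of PHC1 was lost against both controls (adjusted p = 0.13 and 0.072), as was that of PHF19 (0.0716 and 0.0555). The calls of PHC2 against E6 (0.0686) and BMI1 against E8 (0.149) were lost without it too, and CBX6 was added against both. PHC2 against E6 was lost in 4 of 13 alternatives in all, and KDM6B against E8 without 42 h (adjusted p = 0.0584).

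**Figure D4:**
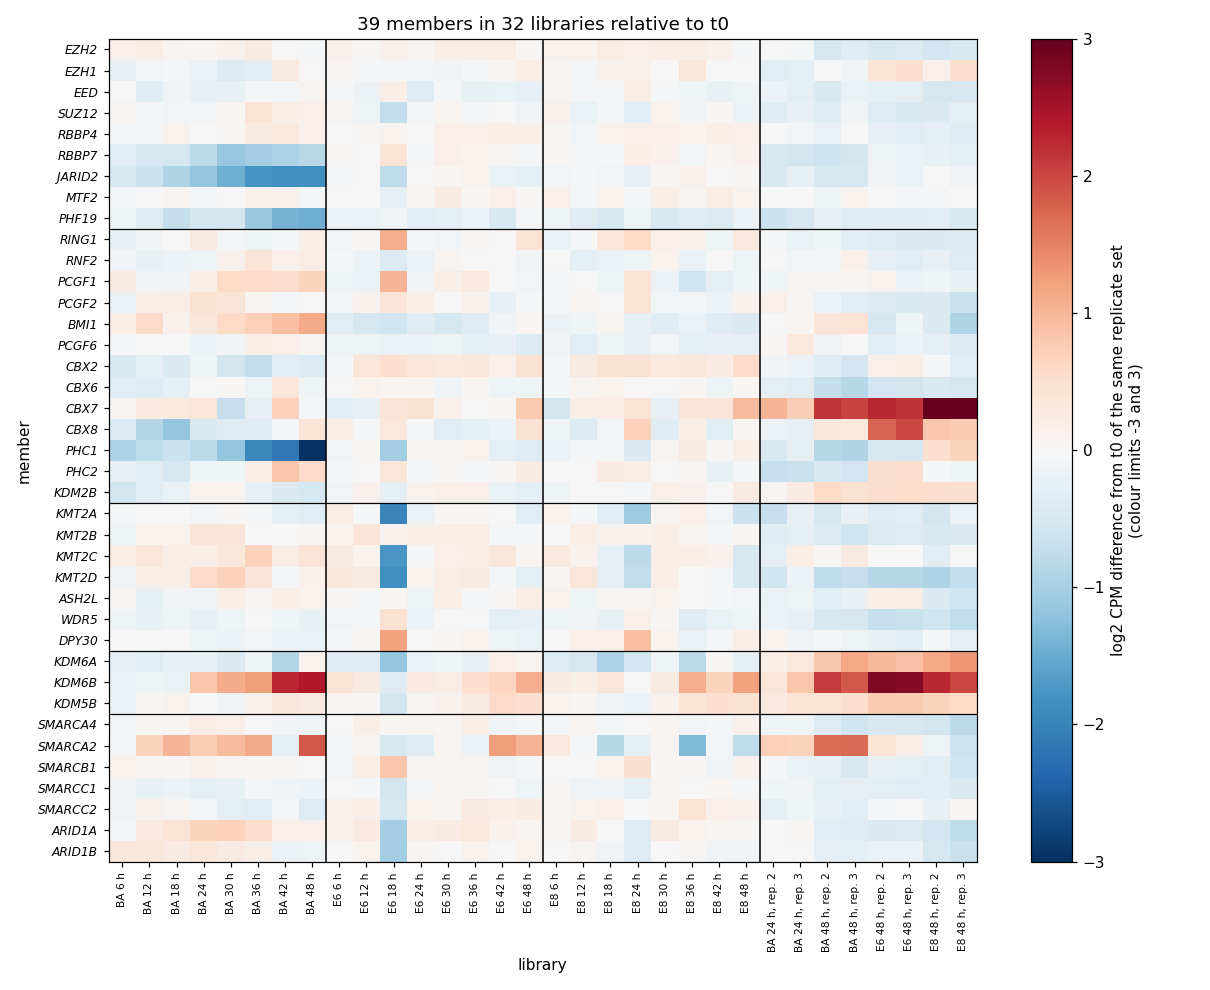
Log2 difference of CPM from t0 of the same replicate set (colour, limits -3 and 3) for the 39 genes (rows, by complex) in the 32 libraries after t0 (columns, by medium and hour, with replicates 2 and 3 at the right). The blue rows of JARID2 and PHC1 deepen along BA, the E6 18 h column stands out in KMT2A, KMT2C, KMT2D and DPY30, and CBX7 and KDM6B are red at 48 h in replicates 2 and 3 of all media.

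With all 3 replicates per group and no block, few of the 39 passed the test over 21554 genes. Between BA at 24 h and t0 edgeR called 0 of 39 (1.57% of all genes), with 3 at an unadjusted p below 0.05. Shares of all genes in this and the next 2 paragraphs are of adjusted calls. None is given at the unadjusted threshold, so the unadjusted counts are not a result about the 39 genes. DESeq2 called RBBP7 (3.98% of all), as did the replicate block (8.95%). RBBP7 was at 204, 244 and 236 CPM in BA at 24 h and 350, 338 and 348 CPM at t0, with no overlap. The log2 difference was -0.57 ± 0.139 (adjusted p = 0.0753), and the block gave an adjusted p of 0.00832. Between BA at 48 h and 24 h edgeR called 0 (0.455%), with 6 unadjusted. DESeq2 called KDM6B (3.23%), and the block called ARID1B, KDM6B, PCGF2 and SMARCA2 (10%).

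At 48 h edgeR called 0 of 39 between BA and E6 (3.52% of all genes), with 7 unadjusted. DESeq2 called CBX8, RBBP7 and SMARCA2 (7.55%), and the block called 8 (22.1%): ASH2L, BMI1, CBX2, CBX8, RBBP7, RNF2, SMARCA2 and SMARCC2. Between BA and E8 edgeR called 2 (2.44%), SMARCA2 higher (1.51% of all genes were) and PHC1 lower (0.933%). PHC1 was at 54.7, 107 and 105 CPM in BA and 490, 276 and 311 CPM in E8, with no overlap (-1.998 ± 0.463, adjusted p = 0.044, with the block 0.00428). That call was lost without any 1 of the 6 libraries (adjusted p from 0.0955 to 0.136), and those of PHC1 and SMARCA2 were lost with only these 2 groups in the fit (0.117 and 0.0706). DESeq2 called JARID2, PHC1, RBBP7 and SMARCA2 (6.12%), and the block called 8 (17.6%): BMI1, CBX2, JARID2, KMT2C, PHC1, RBBP7, RNF2 and SMARCA2.

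Between E6 and E8 at 48 h edgeR called 0 of 39 (0.144%), with 3 unadjusted, DESeq2 called 0 (1.06%), and the block called ASH2L and SMARCA2 (2.84%). ASH2L, a shared COMPASS subunit, was at 71.3, 62.7 and 63.6 CPM in E6 and 57.9, 40.4 and 36.0 CPM in E8 (0.57 ± 0.22, adjusted p = 0.825, with the block 0.0177). Between E8 at 48 h and t0 edgeR called 0 (0.139%), with 5 unadjusted. DESeq2 called CBX7, KDM5B, KDM6B and WDR5 (6.3%). The block called 11 (25.6%): ARID1A, ARID1B, BMI1, CBX7, EZH2, KDM5B, KDM6B, KMT2A, KMT2D, SMARCA4 and WDR5. KDM6B was at 31.4, 79.5 and 66.9 CPM in E8 at 48 h and 13.3, 14.7 and 17.8 CPM at t0. The difference was 2.01 ± 0.46 (adjusted p = 0.0924), and the block gave an adjusted p of 0.00696. The median of the 39 there was -0.22, beside -0.014 over all genes. The comparisons that use t0 or E8 share those libraries.

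In the authors' deposited table, which names no reference group, RBBP7 and PHF19 passed at 24 h in BA, both lower (log2 changes of -0.58 and -0.55, 1.62% of all genes passed). At 48 h in BA the authors' deposited table has KDM6B (2.18) and SMARCA2 (1.88) higher and PHC1 (-1.50) and RBBP7 (-0.63) lower (3.49%). For E6 at 48 h the authors' deposited table has CBX7 (1.81), CBX8 (1.60), KDM5B (0.67) and KDM6B (2.13) higher and WDR5 (-0.53) lower (3.85%), and for E8 at 48 h CBX7 (2.29) and KDM6B (1.73) higher (1.39%).

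The 9 genes that separated the library sets (19.2% of genes did) are given because of their values. EZH2, EED, SUZ12, MTF2, RNF2, BMI1, PCGF6 and SMARCA4 were higher in replicate 1 and the single libraries, and PCGF2 lower. BMI1 differed most, with a median of 7.73 CPM in 25 libraries and 1.48 CPM in 10, a log2 difference of 2.50 over the 5 replicated groups. SUZ12 followed, at 57.8 to 132 CPM against 27.8 to 38.6 CPM, a log2 difference of 1.56. PCGF2, a paralog of BMI1, was at 27.0 to 43.8 CPM against 56.1 to 100 CPM (-1.14). The ratio of PCGF2 to BMI1 per kilobase therefore ran from 2.05 in BA at 48 h of replicate 1 to 122 among the 35 libraries. The 16 proliferation genes summed to 4366 to 5760 CPM in the first set and to 3355 to 4484 CPM in replicates 2 and 3, and their part in these gaps was not tested.

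**Figure D5:**
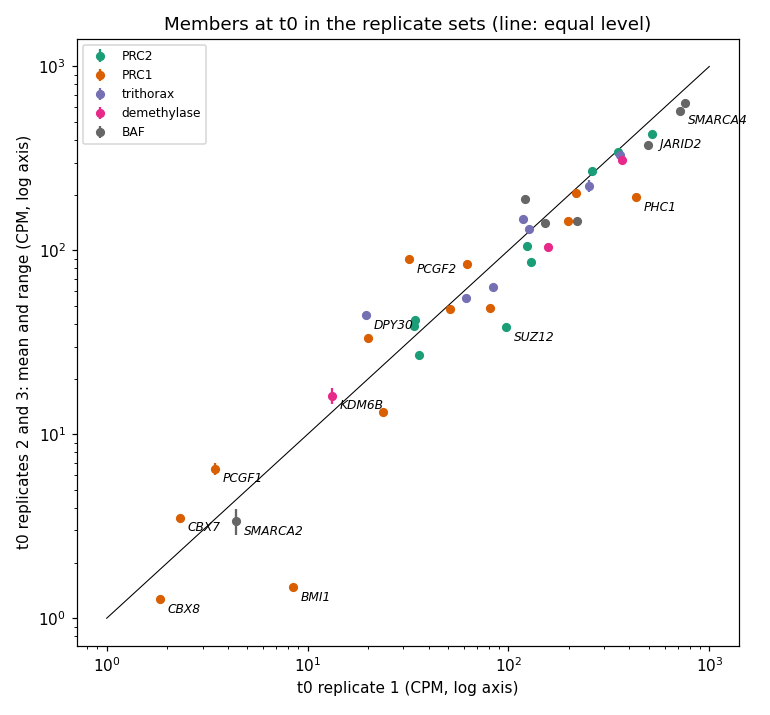
Level at t0 of the 39 genes in replicate 1 (x, CPM, log axis) against the mean of replicates 2 and 3 (y, CPM, log axis; bars are their range), with colours by complex and a line at equal level. BMI1, SUZ12 and PHC1 lie below the line and PCGF2 and DPY30 above it.

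Levels per length at t0 were computed over the union of GENCODE exons. On that scale SMARCC1 was highest at 88.3 ± 9.25 (SD, n = 3) CPM per kilobase of exon, followed by JARID2 at 76.5 ± 8.72, RBBP7 at 46.7 ± 0.866, PHC1 at 44.9 ± 22.4 and SMARCA4 at 39.4 ± 5.06. JARID2 and SMARCC1 overlapped within their spread, and the 3 PHC1 values spanned those of RBBP7 and SMARCA4, which did not overlap with each other. The lowest were SMARCA2 at 0.200 ± 0.0433, CBX8 at 0.350 ± 0.0786, CBX7 at 0.417 ± 0.0944 and BMI1 at 0.887 ± 0.938. CBX2 at 36.7 ± 1.79 was the highest CBX gene and PCGF2 at 20.1 ± 9.53 the highest PCGF gene. With the longest transcript in place of the union, 27 of the 39 levels moved by more than 1 SD and the order changed at both ends. SMARCA4 (107) and SMARCC1 (106) were then highest, before RBBP7 (85.7) and JARID2 (80.0), and CBX8 (0.384) was below SMARCA2 (0.527).

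The other subunits of these complexes form a list of 55 genes, of which 52 were tested over time. Against E6, 10 were higher in BA and 2 lower, where 16.5% and 14.3% of all genes were. Against E8, 10 were higher and 3 lower, where 16.3% and 14.6% of all genes were. Whether the list differs from all genes was not tested. The list's median log2 difference was 0.036 and 0.046, beside -0.004 and -0.003 over all genes. The BAF subunit SMARCD3 was higher by 1.66 ± 0.275 and 1.42 ± 0.277, and the PRC1 subunit genes YAF2 by 1.64 ± 0.245 and 1.41 ± 0.245 and RYBP by 0.85 ± 0.087 and 0.81 ± 0.0869. BCL7C, of BAF, was higher by 0.70 ± 0.197 and 0.87 ± 0.196. DPF1, a BAF subunit of neural cells, was lower by -0.89 ± 0.167 and -0.80 ± 0.166. RYBP, which displaces CBX proteins in variant PRC1, was at 179 CPM in BA at 6 h and 237 CPM at 48 h, against 122 and 114 CPM in E8. In replicates 2 and 3 at 48 h it was at 104 and 109 CPM in BA and 68.3 and 62.3 CPM in E8. Along BA, the PRC2 partner gene EPOP rose by 1.43 ± 0.264 per 24 h, and ASXL3 (-0.93 ± 0.324) and PCGF5 (-0.69 ± 0.146) fell. Of the 16 proliferation genes 3 were higher and 2 lower in BA than in each control, beside the same shares of all genes. That difference was not tested either.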

How the data were processed

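RNA-seq of 35 libraries was analysed from the deposited table of read counts per gene, made by the authors with featureCounts on hg38, per the submitters' processing notes. The name of the deposited table refers to GENCODE release 23. The strand setting of counting is not given in the sources used here. A second deposited table holds log2 fold changes and adjusted p-values of the authors, who used DESeq2 per the submitters' processing notes. Its reference group is not named.

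Groups follow the labels. The 39 genes were listed by name and complex, with no threshold on values, but they and all lists were chosen with earlier results of these data known. Counts were tested with edgeR 4.0.16 (R 4.3.3; filterByExpr, TMM, quasi-likelihood F test, Benjamini-Hochberg adjustment over all genes tested, threshold 0.05) in 3 designs: 15 libraries of the 5 replicated groups, 24 time-course libraries with time as a block and medium, and the same 24 with a linear slope per medium. All 39 genes passed the low-count filter in each. Alternatives used no filter, other size factors, DESeq2 1.42.0, left-out libraries or time points, a spline of 3 degrees of freedom, and a replicate block. Added after seeing the data were a term for the library set and fits without 1 or 5 libraries that stood apart. Log2 differences within a library set use a pseudocount of 0.5 CPM. Exon lengths and overlaps came from GENCODE release 29. The edgeR fits were tested on simulated counts with 1 spread for all genes and without library sets or libraries that stood apart. The simulation therefore does not bear on those features.

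Genes named with every value were those called in a replicated or medium comparison, and the paralogs of EZH, SMARCA, SMARCC, ARID1 and CBX. Of other subunits at most 8 called ones with the largest change are named. Depth was 11793453 to 37191969 counts, so genes near 1 CPM rest on few reads. Deviations from group means correlated at 0.592 to 0.885 between libraries of the same replicate number in all 30 pairs, and at 0.563 to 0.742 between number 2 of a group and number 3 of another. Number 3 with number 3 gave 0.592 to 0.72, so these correlations do not tell pairing by number from the gap between library sets. The main fits had no block, and the fit with replicate number as a block stands beside each call it changes.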

Additional observations from a re-analysis of the deposited data

Results flagged for a closer look

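The slope over time, as log2 per 24 h, differed between media for 6 genes by a test of the difference itself (edgeR's quasi-likelihood test, adjusted over all genes). Between BA and E6 the slope differed by -0.858 for JARID2 (adjusted p = 0.00217), -0.746 for PHF19 (0.0024), -1.195 for PHC1 (0.0136), 0.604 for PHC2 (0.0229) and 1.266 for KDM6B (0.00293). Between BA and E8 it differed by -0.971 for JARID2 (adjusted p = 0.000687), -0.745 for PHF19 (0.00239), 0.712 for BMI1 (0.012), -1.436 for PHC1 (0.00308), 0.759 for PHC2 (0.00503) and 1.121 for KDM6B (0.0081). Without the 48 h time point the calls of PHF19 and PHC1 against both controls, PHC2 against E6 and BMI1 against E8 were lost, and KDM6B and BMI1 against E8 were lost without 42 h. Each medium has 1 library per time point here, and both comparisons share the BA libraries. At 48 h the BA minus E6 difference in replicate 1 and in the mean of replicates 2 and 3 was 1.32 and -0.77 for KDM6B, -1.40 and 0.06 for PHF19, and 0.33 and -1.01 for PHC2. It was -2.59 and -0.38 for PHC1 and -1.55 and -0.34 for JARID2. Whether the library sets differ was not tested.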

How the results depend on the processing

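Counts of the 39 genes called in the replicated comparisons depended on how the library sets were handled. The share of all genes called moved too. For E8 48 h against t0 it was 0.139%, 6.3% with DESeq2 and 25.6% with the block. For BA against E6 at 48 h it was 3.52%, 7.55% and 22.1%. Shares with the set term and with replicates 2 and 3 only are not given here. Those counts are therefore not a result about the 39 genes alone. For BA 24 h against t0 the count of 0 became 1 with DESeq2, 1 with the replicate block, 2 with a term for the library set and 11 with replicates 2 and 3 only. For BA 48 h against 24 h it went from 0 to 1, 4, 5 and 16 in the same order, for BA against E6 at 48 h from 0 to 3, 8, 10 and 15, for BA against E8 from 2 to 4, 8, 9 and 14 (0 with only the 2 groups), and for E8 48 h against t0 from 0 to 4, 11, 13 and 25. For E6 against E8 at 48 h it went from 0 to 2 with the block, 3 with the set term and 10 with replicates 2 and 3 only. Leaving out 1 library gave 0 to 2 (BA against E6, and E8 against t0) and 1 in each case (BA against E8). The replicate block changed no call beyond those named.

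Over time, BA against E6 went from 8 (30.9% of all genes) to 14 (36.2%) with all replicates and a set term. Without 1 time point it was between 6 and 10. BA against E8 went from 9 (31%) to 18 (37.6%) without the E6 18 h library and to 18 (36.1%) with all replicates. Without 1 time point it was between 6 and 17. The 11 slopes in BA (20.6% of all genes) became 7 without the low-count filter and 7 to 11 without 1 time point. The 5 slope differences from E6 (9.17%) became 8 without 5 libraries and 3 to 5 without 1 time point. The 6 from E8 (9.39%) became 4 to 7. Shares of all genes for the alternative slope fits and for fits without 1 time point are not given here. Of 567 pairs of a single gene's call and an alternative, 501 kept the call, 66 lost it and 0 changed direction. The cause was not tested. Genes near 1 CPM, such as CBX8 and BMI1 in replicates 2 and 3, rest on fewer reads, and the part of depth was not tested.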
